A study of Arabidopsis thaliana with 9 samples.

Results

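Whole Arabidopsis thaliana seedlings that over-express RAV1 were compared with En2 wild-type seedlings by RNA sequencing, and the comparison was read by process and gene family and by how each followed the RAV1 level of the individual libraries. It used 6 of the 9 libraries of the study, 3 of the RAV1 over-expression line and 3 of wild type. A locus was tested when it reached at least 1 FPKM (fragments per kilobase of transcript, scaled to the mapped fragments of the library, the unit of the deposited table) in at least 3 of the 9 libraries. This left 19740 of 25199 loci. The remaining 3 libraries came from bes1-D, which carries a dominant allele of the brassinosteroid transcription factor BES1, and served here to estimate the spread between replicates.

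All seedlings were 7 days old, grew untreated on plates of Murashige and Skoog medium at 22 °C under 16 h of light and 8 h of darkness, and carried the Enkheim (En2) background. The wild-type group is En2 itself, the other group expresses RAV1 above its native level, and each has 3 libraries that the labels call biological replicates. The sources used here do not name the promoter that drives RAV1 or the number of independent lines, nor whether replicates came from separate plates. The p-values therefore measure the spread between these libraries only.

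RAV1 is a transcription factor with an AP2 and a B3 DNA-binding domain, and in Arabidopsis it is known as a negative regulator of growth and as a gene whose transcript falls on brassinosteroid treatment. Arabidopsis seedlings of this age usually have used up their seed reserves and live from photosynthesis. Genes for carbon fixation, starch turnover, fatty acid breakdown and amino acid recycling act in the use of stored and newly fixed carbon. Neither reserves nor photosynthesis were measured here.

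RAV1 (AT1G13260) stood at 71.4, 99 and 81.9 FPKM in wild type and 1064, 756 and 1426 FPKM in the line, with values given here and throughout in the order of replicates 1, 2 and 3. Every line library lay above every wild-type library, by 12.9-fold between the means (log2 change 3.63 ± 0.26, adjusted p = 0.000116). An exact permutation test gave p = 0.1, the smallest value that 3 against 3 libraries allow. The line libraries themselves differed by 1.89-fold between the lowest and the highest, in the order replicate 2, replicate 1, replicate 3. FPKM does not separate the introduced copy from the native gene. The absolute depth is unknown, since no fragment counts were used. The estimated depth relative to wild-type replicate 1 was 84.4% and 107% in wild-type replicates 2 and 3, and 105%, 88.9% and 82.9% in line replicates 2, 1 and 3. Within the line, depth thus fell in the same order in which RAV1 rose, and its part in the results by replicate was not tested.

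Of the loci tested 4541 passed an adjusted p of 0.05, which is 23.0% of them: 2960 (15.0%) were higher in the RAV1 line and 1581 (8.01%) were lower. Of the called loci 1079 changed at least 2-fold on the scale of log2(FPKM + 1), which understates the change of low genes. That number was 492 with a pseudocount of 5 FPKM and 1378 with one of 0.1. The split by direction depended on the scaling between libraries. Of the calls 65.2% were higher on the deposited values, 48.2% under trimmed-mean scaling (1960 higher, 9.93% of loci, and 2107 lower) and 47.6% under quantile normalization (1944, 9.85%, and 2144), because the median locus stood 0.09 above wild type (log2) before trimmed-mean scaling and 0.01 after it. A change of less than about that size has no secure direction. Some larger changes of abundant genes also turned under quantile normalization, among them that of the rubisco activase RCA, from -0.53 to 0.11. For 46.8% of the loci the 3 values of the line did not overlap with those of wild type. Calls numbered 2644, 4692 and 2798 without line replicates 1, 2 and 3 and to 3138, 2700 and 3305 without wild-type replicates 1, 2 and 3. A gene given below with its value in every library kept its call in each of these fits and under both other scalings unless the text says otherwise. A lone value in parentheses after a gene is its log2 change, errors after it are standard errors, and adjusted p-values come from limma over all loci tested. Genes named as not called, and ACX2, AMY1, BCAT2, DIN3, DIN11, DOG1, ERD5, IVD, MFP2, PAL2, PAL3, PORC, PWD, SEX1 and ZIP2, were chosen for mention after their values were seen.

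**Figure D1:**
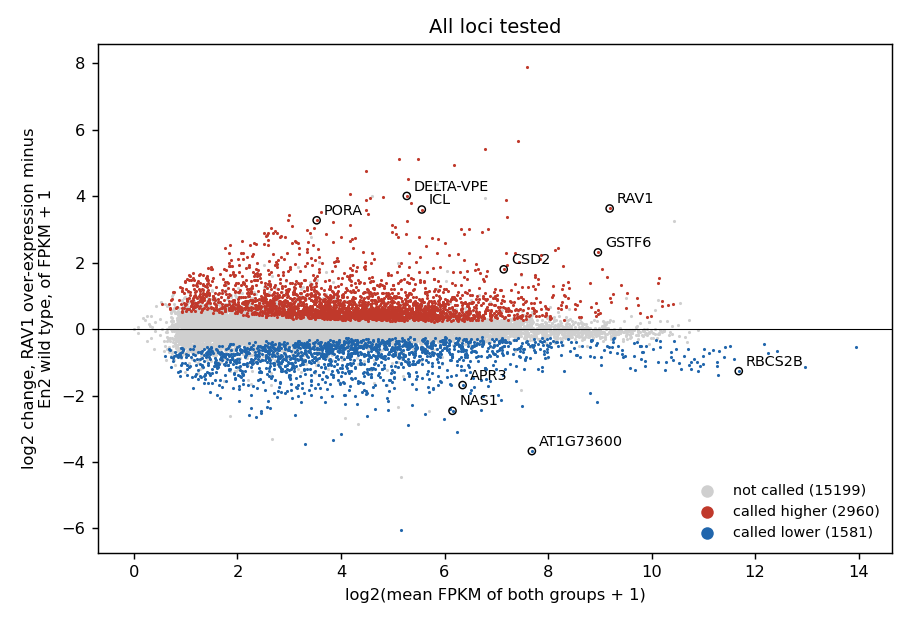
Each point is a locus tested, placed by its mean level in both groups (x axis, log2 of FPKM + 1) and its log2 change between the RAV1 line and wild type (y axis), coloured red for the 2960 called higher and blue for the 1581 called lower. Circles mark genes described in the text; above about 10 on the x axis most coloured points are blue.

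RAV1 is known to bind the sequence CAACA through its AP2 domain and CACCTG through its B3 domain. Each was searched on both strands in the 250 bases before the annotated start of the genes tested (RefSeq annotation of TAIR10.1, 19686 windows), together with CACGTG, the G-box of light and abscisic acid responsive promoters. CAACA was found in 46.7% of all windows, in 44.0% of those of genes called higher and in 51.4% of those called lower. CACCTG was found in 2.52%, 2.74% and 2.85% of the same windows and CACGTG in 7.33%, 9.88% and 7.29%. Both RAV1 motifs together stood in 1.22% of all windows, 1.35% of those called higher and 1.20% of those called lower. A match describes the letters only, and none says nothing about the factor. The windows of RAV1 and of genes that stand for the main groups below are printed 5′ to 3′ in gene direction, with every match to the 3 motifs or their reverse complements in capitals. ICL and MLS encode the paired enzymes of the glyoxylate cycle, GSTF7 a glutathione transferase that rose, and RBCS2B a Rubisco subunit that fell.
RAV1, chr1:4541918-4542167, plus strand, 1 CAACA and 1 CACCTG: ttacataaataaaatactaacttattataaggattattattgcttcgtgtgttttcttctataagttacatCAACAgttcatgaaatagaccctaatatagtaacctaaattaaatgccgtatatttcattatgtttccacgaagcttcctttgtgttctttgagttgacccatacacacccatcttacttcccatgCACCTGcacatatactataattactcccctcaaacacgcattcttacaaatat
ICL, chr3:7656054-7656303, minus strand, no match: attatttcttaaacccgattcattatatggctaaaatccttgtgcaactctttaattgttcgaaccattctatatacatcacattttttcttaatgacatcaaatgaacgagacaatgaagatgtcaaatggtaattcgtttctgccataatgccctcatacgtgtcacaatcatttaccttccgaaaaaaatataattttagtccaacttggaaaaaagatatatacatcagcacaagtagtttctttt
MLS, chr5:1034974-1035223, minus strand, 1 CAACA: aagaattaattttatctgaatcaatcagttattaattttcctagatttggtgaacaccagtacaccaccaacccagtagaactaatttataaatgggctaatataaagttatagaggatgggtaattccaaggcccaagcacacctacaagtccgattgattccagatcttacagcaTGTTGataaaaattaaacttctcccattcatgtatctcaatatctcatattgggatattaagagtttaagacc
GSTF7, chr1:659981-660230, minus strand, 2 CAACA: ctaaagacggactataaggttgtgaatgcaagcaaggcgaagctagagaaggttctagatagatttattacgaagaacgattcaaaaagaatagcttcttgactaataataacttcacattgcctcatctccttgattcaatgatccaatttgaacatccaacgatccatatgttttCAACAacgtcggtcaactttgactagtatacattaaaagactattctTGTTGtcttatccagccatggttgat
RBCS2B, chr5:15382072-15382321, minus strand, 1 CAACA and 1 CACGTG: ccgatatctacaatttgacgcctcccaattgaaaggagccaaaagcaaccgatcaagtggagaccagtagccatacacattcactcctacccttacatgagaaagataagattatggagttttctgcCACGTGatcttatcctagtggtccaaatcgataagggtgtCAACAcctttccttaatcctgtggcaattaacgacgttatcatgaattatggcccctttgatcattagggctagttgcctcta
Among the 20 largest rises and the 20 largest falls, RAV1 itself was the 1 gene whose window held both RAV1 motifs.

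Carbon fixation genes were lower in the RAV1 line. Of 20 tested genes of the Calvin-Benson cycle 13 fell and 0 rose, against 8.01% of all loci lower, and the list's median log2 change was -0.48 where that of all loci was 0.09. Those higher and lower were 0 and 15 under trimmed-mean scaling and 0 and 8 under quantile normalization. RBCS2B (AT5G38420), a small subunit of Rubisco, stood at 4307, 4740.2 and 4759.5 FPKM in wild type and 1849, 2663 and 1426 FPKM in the line. The groups did not overlap and line replicate 3 was the lowest library (log2 change -1.26 ± 0.20, adjusted p = 0.00248). GAPA-2 (AT1G12900), a subunit of the plastid glyceraldehyde-3-phosphate dehydrogenase, measured 1022, 1001 and 1054 FPKM in wild type and 586, 715 and 474 FPKM in the line (log2 change -0.81 ± 0.13, adjusted p = 0.00251). PRK (AT1G32060), the phosphoribulokinase that regenerates the CO2 acceptor, measured 487, 463 and 451 FPKM in wild type and 279, 333 and 215 FPKM in the line (log2 change -0.78 ± 0.14, adjusted p = 0.00387). In all 3 genes replicate 2 of the line stayed closest to wild type. RBCS1B (AT5G38430) measured 2884, 2729 and 2845 FPKM in wild type and 1767, 2043 and 1699.7 FPKM in the line, and its change of -0.62 ± 0.10 reached 0.00 under quantile normalization (adjusted p = 0.994), a setting that forces equal values on the top ranks of all libraries. RBCS1B, RBCS2B and RBCS3B are near-identical neighbours, so the authors' counting may have split their reads. The 4 mesophyll markers were RBCS1A, itself a gene of the cycle and the largest term of their sum, and the light-harvesting genes LHCB1.1, LHCB1.3 and LHCB2.1, so they are no separate reading. Their summed level was 20937, 24972 and 17545 FPKM in the line against 34559, 36086 and 34077 in wild type, and all 4 were called lower. With trimmed-mean scaling 0 higher stood beside 4 lower, and with quantile normalization 0 beside 0. LHCB2.1 lost its call without any 1 library except line replicate 2 (adjusted p from 0.0759 to 0.125). In whole seedlings, fewer green cells and less RNA per green cell cannot be told apart. The lower count of the cycle was 8, 7 and 9 without wild-type replicates 1, 2 and 3 and 7, 13 and 8 without line replicates 1, 2 and 3.

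Photorespiration, which recycles the product of Rubisco's reaction with oxygen through chloroplast, peroxisome and mitochondrion, showed the same direction. Of 15 tested genes 7 fell, 0 rose, and the median change was -0.15. Quantile normalization gave 0 higher and 6 lower, and trimmed-mean scaling 0 and 7. GGT1 (AT1G23310), the peroxisomal glutamate:glyoxylate aminotransferase, stood at 747, 698 and 636 FPKM in wild type and 353, 449.95 and 223 FPKM in the line. The groups did not overlap, and the line mean was 49.3% of the wild-type mean (log2 change -1.07 ± 0.21, adjusted p = 0.00617). HPR1 (AT1G68010), the hydroxypyruvate reductase, measured 266, 246 and 217 FPKM in wild type and 145, 158 and 93.1 FPKM in the line (log2 change -0.91 ± 0.19, adjusted p = 0.00793). CAT2 (AT4G35090), the leaf catalase that removes the hydrogen peroxide made there, measured 466, 374 and 426 FPKM in wild type and 279.7, 287 and 236 FPKM in the line (log2 change -0.65 ± 0.13, adjusted p = 0.00581). Members that were not called included the T protein of glycine decarboxylase (GLDT, -0.01), the glycolate oxidases GOX1 and GOX2 (-0.13 and -0.15) and GLYK (0.01), the glycerate kinase. All 7 called members stood in the reverse order of RAV1 across the line. Their number was 6, 4 and 4 without wild-type replicates 1, 2 and 3 and 5, 7 and 6 without line replicates 1, 2 and 3.

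**Figure D2:**
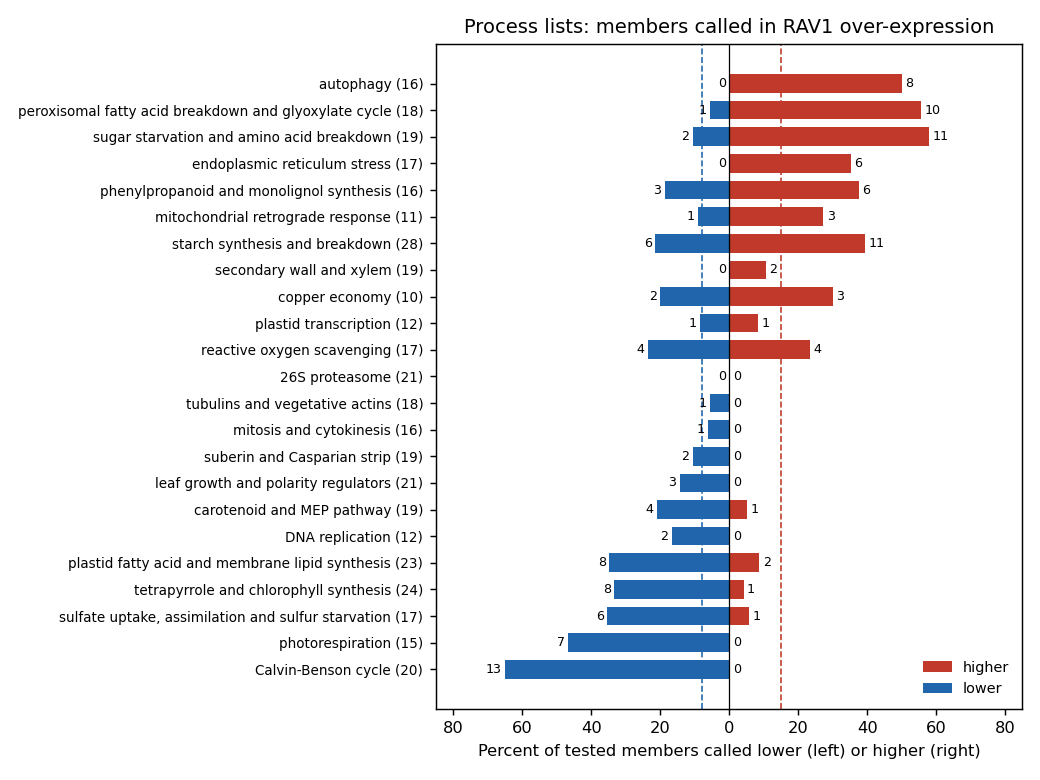
Bars give the percent of tested members of each process list called higher (right, red) or lower (left, blue) in the RAV1 line, with the number called at each bar and the number tested in parentheses. Dashed lines mark the shares among all loci tested, 15.0% higher and 8.01% lower; the Calvin-Benson cycle has 13 members lower and the sugar starvation list 11 higher.

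Chlorophyll synthesis genes fell in part, and 1 member rose far. Of 24 tested genes of tetrapyrrole synthesis 8 fell and 1 rose, with a median of -0.24. Higher and lower calls numbered 1 and 10 after trimmed-mean scaling and 1 and 7 after quantile normalization. GUN4 (AT3G59400), the activator of magnesium chelatase, stood at 174, 182 and 138 FPKM in wild type and 77.9, 90.6 and 66.1 FPKM in the line (log2 change -1.07 ± 0.16, adjusted p = 0.00154). HEMA1 (AT1G58290), the glutamyl-tRNA reductase that controls entry into the pathway, measured 72.4, 75.4 and 73 FPKM in wild type and 48.6, 48 and 40.1 FPKM in the line (log2 change -0.69 ± 0.10, adjusted p = 0.0014). CAO (AT1G44446), the oxygenase that makes chlorophyll b, fell to 61.9% of wild type (log2 change -0.69 ± 0.12, adjusted p = 0.0033). The chelatase subunits CHLI1, CHLD and CHLH had log2 changes of -0.24, -0.24 and -0.55 and were not called. PORA (AT5G54190), the protochlorophyllide reductase known from dark-grown seedlings, went the other way, from 0.28, 1.53 and 1.54 FPKM in wild type to 30.9, 16.8 and 12.3 in the line. The lowest line library lay above the highest wild-type library, and within the line replicate 1 and not replicate 3 was highest (log2 change 3.28 ± 0.35, adjusted p = 0.000447). The other reductases measured -0.22 (PORB, not called) and -0.68 ± 0.16 (PORC, AT1G03630, adjusted p = 0.0128). The number of members lower was 5, 5 and 6 without wild-type replicates 1, 2 and 3 and 5, 11 and 5 without line replicates 1, 2 and 3.

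Other plastid functions moved less evenly. Of 12 genes of plastid transcription 1 rose and 1 fell, against 23.0% of all loci called. SIG4 (AT5G13730), a sigma factor of the plastid RNA polymerase, was the member higher (0.40 ± 0.10), and it lost its call under quantile normalization (adjusted p = 0.0525) and without wild-type replicate 3 (0.0538) or line replicate 3 (0.0528). The gene that fell was SIG1 (AT1G64860), another sigma factor, at 27.9, 26.3 and 21.9 FPKM in wild type and 11.9, 12.1 and 9.05 FPKM in the line (log2 change -1.14 ± 0.13, adjusted p = 0.000516), while SIG2, SIG3, SIG5 and SIG6 had log2 changes between -0.07 and 0.31 and were not called. The isoprenoid and carotenoid list had 4 of 19 members lower and 1 higher. Trimmed-mean scaling left 0 higher and 6 lower, and quantile normalization 0 and 5. Among those lower was DXR (AT5G62790), which makes methylerythritol phosphate, at 80.5, 96.1 and 90.1 FPKM in wild type and 47.1, 62.8 and 39 FPKM in the line (log2 change -0.85 ± 0.15, adjusted p = 0.00331). CCD4 (AT4G19170), a dioxygenase that cleaves carotenoids, measured 19, 19.5 and 17.3 FPKM in wild type and 7.63, 12.4 and 5.64 FPKM in the line (log2 change -1.1 ± 0.21, adjusted p = 0.00518). Without wild-type replicates 1, 2 and 3 the carotenoid list had 2, 2 and 4 members lower, and without line replicates 1, 2 and 3 it had 3, 5 and 2. Of 23 genes of plastid fatty acid and membrane lipid synthesis 8 fell and 2 rose. Under trimmed-mean scaling 2 were higher and 10 lower, and under quantile normalization 2 and 8. FAD7 (AT3G11170), the plastid omega-3 desaturase, measured 171, 178 and 176 FPKM in wild type and 120.2, 137 and 112 FPKM in the line (log2 change -0.51 ± 0.09, adjusted p = 0.00386). FAD3 (AT2G29980), which carries out the same step in the endoplasmic reticulum, measured 93.1, 92.2 and 88.3 FPKM in wild type and 125, 114 and 128 FPKM in the line (log2 change 0.42 ± 0.09, adjusted p = 0.00915). The lipid list had 4, 4 and 6 members lower without wild-type replicates 1, 2 and 3 and 5, 8 and 3 without line replicates 1, 2 and 3.

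Starch genes moved both ways. Of 28 tested genes 11 rose and 6 fell, with a median of 0.23. Those higher and lower were 9 and 7 under trimmed-mean scaling and 9 and 8 under quantile normalization. The glucan phosphorylating enzymes that open the granule for breakdown were higher: SEX1 (AT1G10760) stood at 69.7, 63.1 and 66.1 FPKM in wild type and 128, 106 and 148 FPKM in the line (log2 change 0.92 ± 0.16, adjusted p = 0.00282). PWD (AT5G26570) measured 50.5, 41.4 and 47.6 FPKM in wild type and 87.1, 73.6 and 117 FPKM in the line (log2 change 0.96 ± 0.16, adjusted p = 0.00248). DPE1 (AT5G64860), the plastid disproportionating enzyme, also rose, from 26.5, 28 and 28.2 to 48.2, 40.3 and 54.5 FPKM (log2 change 0.76 ± 0.11, adjusted p = 0.00145). In all 3 the line replicates stood in the order of RAV1. AMY1 (AT4G25000), a secreted alpha-amylase, was near 0 in wild type (0.51, 0.91 and 0.18 FPKM) and reached 12.5, 2.39 and 23 FPKM in the line (log2 change 2.78 ± 0.58, adjusted p = 0.00988). Lower was BAM3 (AT4G17090), the chloroplast beta-amylase, at 27.1, 25 and 21.6 FPKM in wild type and 10.3, 11.3 and 7.92 FPKM in the line (log2 change -1.25 ± 0.16, adjusted p = 0.000988). GPT2 (AT1G61800), the translocator that brings glucose 6-phosphate into plastids, measured 13.2, 19.2 and 11.1 FPKM in wild type and 3.78, 2.91 and 2.51 FPKM in the line. GPT2 stood at 21.1% of the wild-type mean (log2 change -1.91 ± 0.19, adjusted p = 0.000274). The small subunit of ADP-glucose pyrophosphorylase (ADG1, -0.01) and its main large subunit (APL1, 0.04) were not called. The higher count was 9, 8 and 8 without wild-type replicates 1, 2 and 3 and 7, 11 and 7 without line replicates 1, 2 and 3.

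Genes that turn fatty acids into sugar rose. Of 18 tested genes of peroxisomal fatty acid breakdown and the glyoxylate cycle 10 rose, against 15.0% of all loci, and 1 fell, with a median of 0.36. With trimmed-mean scaling 7 higher stood beside 1 lower, and with quantile normalization 7 beside 1. ICL (AT3G21720), isocitrate lyase, stood at 7.15, 4.06 and 6.2 FPKM in wild type and 99.7, 44.5 and 116 FPKM in the line. Every line library exceeded every wild-type library, with replicate 2 the lowest of the line (log2 change 3.60 ± 0.34, adjusted p = 0.000335). MLS (AT5G03860), malate synthase, the partner of ICL in the cycle, measured 6.1, 3.9 and 4.56 FPKM in wild type and 31.6, 16.7 and 23.1 FPKM in the line (log2 change 2.05 ± 0.21, adjusted p = 0.000306). PCK1 (AT4G37870), the phosphoenolpyruvate carboxykinase that leads the product toward sugar, measured 186, 169 and 199 FPKM in wild type and 440.3, 391 and 455 FPKM in the line (log2 change 1.21 ± 0.11, adjusted p = 0.000182). CSY3 (AT2G42790), a peroxisomal citrate synthase, measured 21.4, 16.9 and 20.4 FPKM in wild type and 39.6, 30.5 and 45.8 FPKM in the line (log2 change 0.94 ± 0.14, adjusted p = 0.00193). Earlier steps were mixed. The acyl-CoA oxidase ACX2 and the multifunctional protein MFP2 of fatty acid breakdown rose (0.61 ± 0.12 and 0.63 ± 0.14). The acyl-CoA oxidases ACX1 and ACX4 (0.26 and 0.15) and the lipase SDP1 (-0.04), which frees fatty acids from seed oil, were not called. The summed FPKM of the 11 tested and 7 untested markers of seed and embryo was also higher, at 40.7, 29.9 and 20.9 in wild type and 482, 146 and 1813 in the line. That sum was highest in line replicate 3, as was ICL, while MLS was highest in line replicate 1. LEC1, an embryo regulator, was at 0.17 FPKM in line replicate 3 and listed at 0 in the other 5 libraries. CRB, a seed storage globulin, was at 1.12, 0.25 and 5.55 FPKM in the line and listed at 0 throughout wild type. Of the other untested markers, SESA1 and SESA3 reached 11.65 and 6.44 FPKM in line replicate 3 and at most 1.39 in line replicates 1 and 2. SESA4 overlapped, at 1.32, 0.9 and 0 FPKM in wild type and 0.21, 1.28 and 0.46 FPKM in the line. ABI3 was at 0.19, 0.19 and 0.12 FPKM in wild type and 0.9, 0.72 and 2.77 FPKM in the line. FUS3 did not exceed 0.1 FPKM. The part of seed or embryo RNA in the higher glyoxylate cycle genes was not tested. The higher count of this list was 7, 6 and 8 without wild-type replicates 1, 2 and 3 and 6, 10 and 7 without line replicates 1, 2 and 3, the last of which had the highest seed gene level.

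Genes induced by sugar shortage and genes of amino acid breakdown rose together. Of 19 tested members of that list 11 rose and 2 fell, with a median of 0.69, and the count stayed at 11 and 2 without any 1 library and under both other scalings. ASN1 (AT3G47340), the asparagine synthetase known for its rise in darkness, stood at 2.56, 1.51 and 1.55 FPKM in wild type and 20.6, 12.2 and 17.5 FPKM in the line. All 3 line libraries were above wild type (log2 change 2.62 ± 0.23, adjusted p = 0.000182). GDH2 (AT5G07440), a mitochondrial glutamate dehydrogenase, measured 188, 156 and 191 FPKM in wild type and 379, 335 and 387 FPKM in the line (log2 change 1.04 ± 0.12, adjusted p = 0.000658). TPS9 (AT1G23870), a class II trehalose phosphate synthase, measured 28.4, 24.5 and 30.6 FPKM in wild type and 46.8, 49 and 57 FPKM in the line (log2 change 0.85 ± 0.11, adjusted p = 0.000854). Of the genes that degrade branched-chain amino acids, DIN3 (AT3G06850) measured 20.8, 17.3 and 23.8 FPKM in wild type and 44.1, 34.1 and 43.8 FPKM in the line (log2 change 0.95 ± 0.15, adjusted p = 0.00191), and BCAT2 (AT1G10070) and IVD (AT3G45300) changed by 1.38 ± 0.23 and 1.08 ± 0.20. ERD5 (AT3G30775), the proline dehydrogenase, changed by 1.00 ± 0.16. KMD4 (AT3G59940), a kelch F-box protein, fell from 135, 159.6 and 170.3 to 62.8, 72.1 and 66.7 FPKM (log2 change -1.19 ± 0.12, adjusted p = 0.000328). DIN11 (AT3G49620) measured 4.01, 6.19 and 3.17 FPKM in wild type and 1.29, 1.28 and 0.9 FPKM in the line, lower in every line library (-1.31 ± 0.23). Other markers of darkness and starvation did not pass: SEN1 (0.15), DIN10 (-0.16), TPS8 (0.14) and TPS11 (0.10).

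Autophagy, the delivery of cell contents to the vacuole, had 8 of 16 tested genes higher and 0 lower, with a median of 0.38. Quantile normalization gave 4 higher and 0 lower, and trimmed-mean scaling 4 and 0. NBR1 (AT4G24690), the receptor that is degraded with its ubiquitinated cargo, stood at 93.3, 85.1 and 89.2 FPKM in wild type and 159.8, 136 and 202 FPKM in the line (log2 change 0.87 ± 0.14, adjusted p = 0.00224). ATG8A (AT4G21980) and ATG8B (AT4G04620), ubiquitin-like proteins that coat the autophagosome, measured 51.3, 41.2 and 50.9 FPKM in wild type and 86.4, 74 and 112 FPKM in the line (log2 change 0.90 ± 0.18, adjusted p = 0.00708) and 29.6, 29.6 and 37.6 FPKM in wild type and 64, 54.4 and 111 FPKM in the line (log2 change 1.16 ± 0.24, adjusted p = 0.00838). In these genes the line replicates stood in the order of RAV1 and none overlapped with wild type. ATG8C and ATG8E (-0.12 and 0.00) were not called. The higher count was 5, 4 and 6 without wild-type replicates 1, 2 and 3 and 4, 7 and 4 without line replicates 1, 2 and 3. Of the other main route of protein breakdown, the 26S proteasome, 0 of 21 subunits rose and 0 fell in limma's test, with log2 changes from -0.14 (RPN8A) to 0.17 (RPT5A), and at an unadjusted p of 0.05 the count was also 0. Of 17 tested genes of the endoplasmic reticulum stress response 6 rose and 0 fell. Higher and lower calls numbered 4 and 0 after trimmed-mean scaling and 5 and 0 after quantile normalization. BZIP60 (AT1G42990), a transcription factor of that response, measured 27.1, 21.5 and 22.6 FPKM in wild type and 38.7, 34.7 and 39.8 FPKM in the line (log2 change 0.65 ± 0.10, adjusted p = 0.00207). UTR1 (AT2G02810), a nucleotide sugar transporter of the same membrane, measured 17.9, 17.1 and 22.1 FPKM in wild type and 33.6, 31.6 and 35.4 FPKM in the line (log2 change 0.79 ± 0.13, adjusted p = 0.00255). The chaperones BIP1 and BIP2 (0.08 and 0.15) were not called. For the stress list the higher count was 4, 3 and 4 without wild-type replicates 1, 2 and 3 and 4, 5 and 3 without line replicates 1, 2 and 3.

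Antioxidant genes moved both ways, and the copper/zinc superoxide dismutases were among those higher. Of 17 tested scavengers 4 rose and 4 fell. Trimmed-mean scaling left 4 higher and 6 lower, and quantile normalization 4 and 3. CSD2 (AT2G28190), the plastid copper/zinc superoxide dismutase, stood at 67.6, 41.8 and 63.5 FPKM in wild type and 197, 111 and 361 FPKM in the line. The line values spanned more than the wild-type values and replicate 3 was far the highest (log2 change 1.80 ± 0.39, adjusted p = 0.0121). CSD1 (AT1G08830), its cytosolic counterpart, measured 112, 75.5 and 119 FPKM in wild type and 240.2, 161 and 366 FPKM in the line (log2 change 1.26 ± 0.30, adjusted p = 0.0168). CCS (AT1G12520), the chaperone that hands them copper, measured 25.6, 16.4 and 24.2 FPKM in wild type and 44.8, 34.4 and 74 FPKM in the line (log2 change 1.13 ± 0.29, adjusted p = 0.0222). CSD1 lost its call without wild-type replicate 2 (adjusted p = 0.0627) or line replicate 1 (0.0512), and CCS without those libraries (0.0812 and 0.0548) or line replicate 3 (0.0501). FSD1 (AT4G25100), the iron superoxide dismutase, measured 1797, 2030.4 and 2160.5 FPKM in wild type and 1323, 1514 and 1137 FPKM in the line (log2 change -0.60 ± 0.15, adjusted p = 0.0157), with adjusted p of 0.0536 to 0.0584 when wild-type replicate 2 or 3 or line replicate 1 or 3 was left out and of 0.329 under quantile normalization. DHAR1 (AT1G19570), a dehydroascorbate reductase, stood at 282, 299.5 and 283 FPKM in wild type and 452, 397 and 472 FPKM in the line (log2 change 0.60 ± 0.09, adjusted p = 0.002). CAT1 (AT1G20630), a catalase, measured 22.2, 18.6 and 23.7 FPKM in wild type and 45.8, 32.3 and 54.6 FPKM in the line (log2 change 0.98 ± 0.19, adjusted p = 0.00523). Among the 4 members lower was TAPX (AT1G77490), the thylakoid ascorbate peroxidase, at 43.8, 47 and 46.7 FPKM in wild type and 32.7, 37 and 28 FPKM in the line (log2 change -0.49 ± 0.11, adjusted p = 0.0115). That lower count was 3, 1 and 1 without wild-type replicates 1, 2 and 3 and 1, 3 and 2 without line replicates 1, 2 and 3. Genes of copper shortage other than these dismutases and their chaperone, among them the transporter COPT2 (-0.21) and the regulator SPL7 (-0.26), were not called, apart from ZIP2 (AT5G59520, -0.53 ± 0.15). ZIP2 lost its call without line replicate 1 or any 1 wild-type library (adjusted p from 0.0513 to 0.101). Of the 11 tested genes of mitochondrial retrograde signalling 3 rose and 1 fell, and without 1 library the higher count lay between 0 and 3 (1, 0 and 1 without wild-type replicates 1, 2 and 3, 0, 3 and 0 without line replicates 1, 2 and 3).

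Glutathione transferases, which attach glutathione to reactive compounds, moved both ways. Of 13 tested phi members 4 rose and 2 fell. Under trimmed-mean scaling 4 were higher and 2 lower, and under quantile normalization 4 and 2. GSTF6 (AT1G02930) stood at 144, 138 and 210.2 FPKM in wild type and 796, 585 and 1116 FPKM in the line. The groups did not overlap, and line replicate 3 was the highest library (log2 change 2.31 ± 0.28, adjusted p = 0.000957). Its neighbour GSTF7 (AT1G02920) measured 110.3, 63 and 84.6 FPKM in wild type and 289, 208 and 308 FPKM in the line (log2 change 1.65 ± 0.20, adjusted p = 0.000715). GSTF3 (AT2G02930) measured 2.12, 0.15 and 0.25 FPKM in wild type and 7.92, 5.61 and 14 FPKM in the line (log2 change 2.54 ± 0.40, adjusted p = 0.00229). These are close relatives whose reads the authors' counting may have split. Of 24 tau members 3 rose and 6 fell. Those higher and lower were 2 and 8 under trimmed-mean scaling and 2 and 8 under quantile normalization. GSTU5 (AT2G29450) stood at 147, 131 and 149 FPKM in wild type and 49.2, 69.9 and 20.7 FPKM in the line (log2 change -1.75 ± 0.36, adjusted p = 0.00903). GSTU10 (AT1G74590) measured 4.39, 2.59 and 3.6 FPKM in wild type and 10.1, 9.81 and 6.61 FPKM in the line (log2 change 1.12 ± 0.19, adjusted p = 0.00268). The lower tau count was 3, 5 and 5 without wild-type replicates 1, 2 and 3 and 3, 7 and 4 without line replicates 1, 2 and 3.

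Sulfate uptake and reduction, which supply the sulfur of glutathione and of the glucosinolates, were lower. Of 17 tested genes 6 fell, 1 rose, and the median change was -0.39. With trimmed-mean scaling 1 higher stood beside 7 lower, and with quantile normalization 1 beside 7. APR3 (AT4G21990), an adenosine phosphosulfate reductase, stood at 135, 114 and 118 FPKM in wild type and 38.1, 52.2 and 26 FPKM in the line (log2 change -1.68 ± 0.25, adjusted p = 0.00202). The sulfate transporters SULTR2;1 (AT5G10180) and SULTR1;2 (AT1G78000) measured 40.4, 32.9 and 30.5 FPKM in wild type and 17.4, 19.2 and 12 FPKM in the line (log2 change -1.06 ± 0.16, adjusted p = 0.00179) and 36.1, 31.8 and 50.0 FPKM in wild type and 20.4, 26.2 and 21.9 FPKM in the line (log2 change -0.74 ± 0.16, adjusted p = 0.00916). Line replicates of APR3 and SULTR2;1 lay in the reverse order of RAV1. GGCT2;1 (AT5G26220), which degrades glutathione in the cytosol, was the member that rose, from 5.12, 7.56 and 2.52 to 26.4, 17.4 and 25.1 FPKM (log2 change 2.05 ± 0.31, adjusted p = 0.00193). Markers of sulfur shortage itself had small values, with SDI1 at 0.32, LSU1 at 0.15 and LSU2 at -0.12, and none was called. The lower count of the list was 5, 4 and 5 without wild-type replicates 1, 2 and 3 and 4, 8 and 4 without line replicates 1, 2 and 3.

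**Figure D3:**
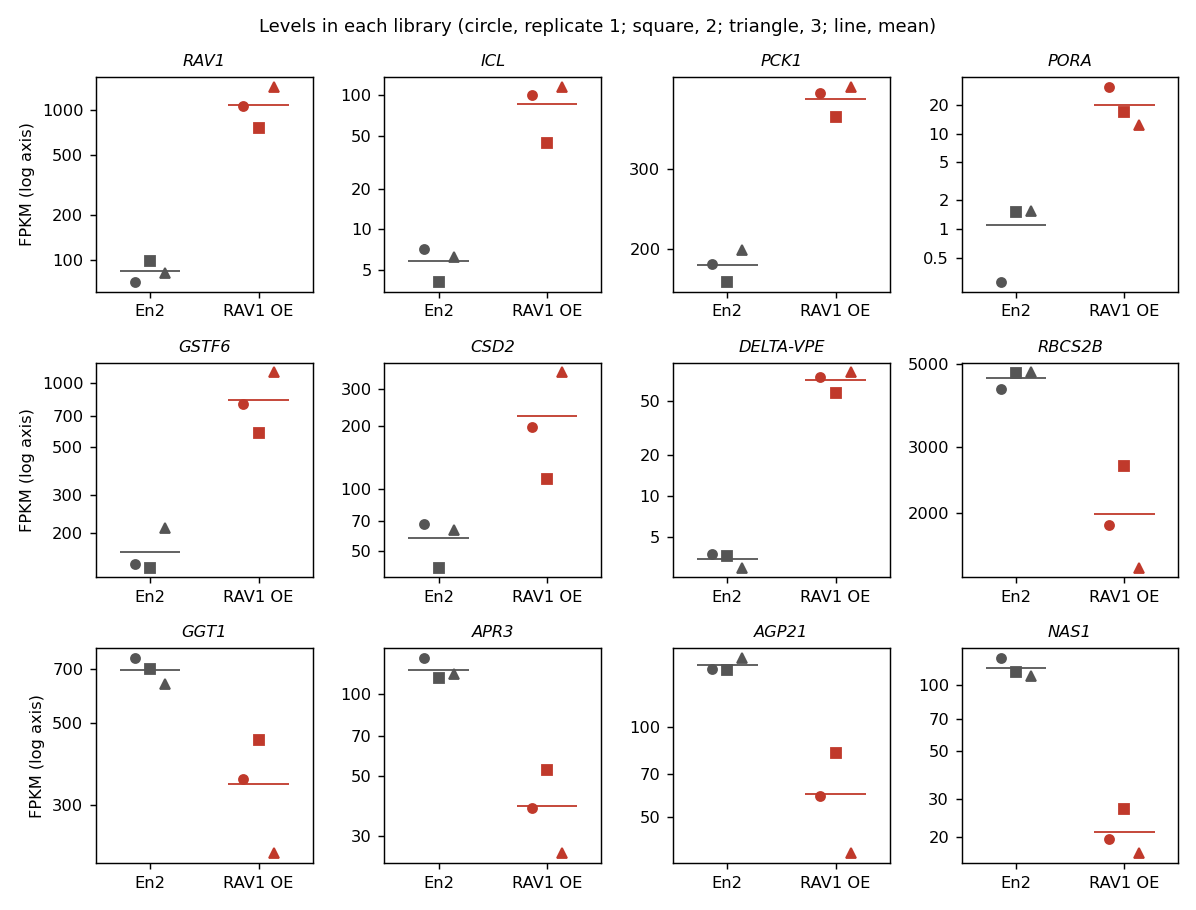
Each panel gives 1 gene, with its FPKM on a log axis in every En2 wild-type library (grey) and every RAV1 over-expression library (red, RAV1 OE); the symbol marks the replicate number and the line the group mean. No panel shows overlap between the groups, and for ICL, GSTF6 and CSD2 line replicate 3 is the highest library, while for RBCS2B, GGT1 and APR3 it is the lowest.

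Phenylpropanoid genes, which supply lignin, sinapate esters and flavonoids, moved both ways. Of 16 tested genes 6 rose and 3 fell. Quantile normalization gave 6 higher and 3 lower, and trimmed-mean scaling 5 and 3. C4H (AT2G30490), cinnamate hydroxylase, stood at 143, 138 and 127 FPKM in wild type and 239, 227 and 264 FPKM in the line (log2 change 0.84 ± 0.09, adjusted p = 0.000335). CAD5 (AT4G34230) and CAD4 (AT3G19450), the dehydrogenases that make monolignols, measured 47.9, 48.4 and 45.5 FPKM in wild type and 97.9, 76.5 and 106 FPKM in the line (log2 change 0.96 ± 0.12, adjusted p = 0.000927) and 78.1, 69.4 and 70.3 FPKM in wild type and 122, 106 and 134 FPKM in the line (log2 change 0.72 ± 0.10, adjusted p = 0.0014). Of the phenylalanine ammonia lyases PAL4 (AT3G10340) rose, from 2.78, 2.16 and 2.69 to 6.25, 7.27 and 10.1 FPKM (log2 change 1.31 ± 0.19, adjusted p = 0.00154), and PAL2 and PAL3 changed by -0.96 ± 0.19 and -1.53 ± 0.31. PAL1 (0.26) was not called. Of 19 tested genes of the secondary wall and xylem 2 rose and 0 fell, a direction that was not kept under other scalings. Higher and lower calls numbered 1 and 1 after trimmed-mean scaling and 1 and 1 after quantile normalization. FRA8 (AT2G28110), which acts in xylan synthesis, was 1 of them, at 2.8, 3.58 and 2.77 FPKM in wild type and 6.79, 5.33 and 11.4 FPKM in the line (log2 change 1.07 ± 0.22, adjusted p = 0.00723), and the cellulose synthases CESA4, CESA7 and CESA8 had log2 changes of -0.22, -0.41 and -0.18 and were not called, although CESA7 was the member lower under both other scalings. The other member called was IRX10 (AT1G27440), a xylan synthase (0.44 ± 0.11), which lost its call under both other scalings (adjusted p = 0.053 and 0.0598) and without wild-type replicate 1 (0.0658) or 2 (0.0577) or line replicate 3 (0.075). The secondary wall list had 1, 1 and 2 higher and 0, 0 and 0 lower without wild-type replicates 1, 2 and 3, and 2, 2 and 1 higher and 0, 3 and 0 lower without line replicates 1, 2 and 3. Suberin and Casparian strip genes had 2 of 19 members lower and 0 higher, and that lower count was 0, 0 and 2 without wild-type replicates 1, 2 and 3 and 1, 1 and 0 without line replicates 1, 2 and 3.

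Those cell division and leaf patterning genes that were called were all lower on the deposited values. Their calls were few: 16.7% of the replication list, 6.25% of the mitotic list, 5.56% of tubulins and actins and 14.3% of leaf regulators. Among all loci 8.01% were lower and 23.0% were called. Such small counts are not read as a result about these lists. Of 12 genes of DNA replication 2 fell and 0 rose, while all 12 had a log2 change under 0. Trimmed-mean scaling left 0 higher and 3 lower, and quantile normalization 0 and 4. Among those lower was PCNA1 (AT1G07370), the sliding clamp of the polymerase, at 47.2, 45.8 and 44.5 FPKM in wild type and 33.7, 35.5 and 31.9 FPKM in the line (log2 change -0.43 ± 0.10, adjusted p = 0.0103). The other member lower was TSO2 (AT3G27060, -0.35 ± 0.11), which lost its call without each of the 6 libraries in turn (adjusted p from 0.0649 to 0.115). The replication count was 1, 1 and 1 without wild-type replicates 1, 2 and 3 and 1, 3 and 1 without line replicates 1, 2 and 3. Of 16 genes of mitosis and cytokinesis 1 fell, CYCA1;1 (AT1G44110), at 18.8, 19.4 and 17.8 FPKM in wild type and 11, 15.3 and 9.77 FPKM in the line (log2 change -0.61 ± 0.17, adjusted p = 0.0242), and all 16 had a log2 change under 0, with a median of -0.32. Under trimmed-mean scaling 0 were higher and 2 lower, and under quantile normalization 0 and 3. CYCA1;1 lost its call without wild-type replicate 1 or 2 or line replicate 1 or 3 (adjusted p from 0.064 to 0.0863). The mitotic count was 0, 0 and 1 without wild-type replicates 1, 2 and 3 and 0, 9 and 0 without line replicates 1, 2 and 3. In line replicates 2, 1 and 3 the median mitotic gene stood 0.00, -0.29 and -0.62 from the wild-type mean (log2), so its median was that of wild type in the library with the least RAV1. Core histones, which are made in S phase, had 4 of 27 members lower and 0 higher, with 22 changes under 0 (0 higher and 6 lower under trimmed-mean scaling, 0 and 5 under quantile normalization). Their lower count was 0, 1 and 1 without wild-type replicates 1, 2 and 3 and 1, 5 and 0 without line replicates 1, 2 and 3. Of 18 tubulins and vegetative actins 1 was called, TUB8 (AT5G23860), a beta-tubulin, at 42.8, 41.2 and 40.4 FPKM in wild type and 31.3, 33.3 and 24.9 FPKM in the line (log2 change -0.47 ± 0.13, adjusted p = 0.0279). TUB8 lost its call without any 1 library except line replicate 2 (adjusted p from 0.0598 to 0.0961), while both other scalings called 2 members lower. Of 21 regulators of leaf growth and polarity 3 fell and 0 rose. Those higher and lower were 0 and 4 under trimmed-mean scaling and 0 and 6 under quantile normalization. ANT (AT4G37750), an AP2 factor that prolongs organ growth, measured 10.8, 11.1 and 10.3 FPKM in wild type and 7.46, 7.91 and 7.28 FPKM in the line (log2 change -0.46 ± 0.09, adjusted p = 0.00625), and the class II TCP factors TCP3 and TCP4 (-0.44 and -0.40) were not called. The leaf list had 1, 1 and 1 members lower without wild-type replicates 1, 2 and 3 and 2, 3 and 1 without line replicates 1, 2 and 3.

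Tissue markers were read for the makeup of the seedlings. The seed or embryo list had 9 of 11 tested members higher, 1 lower and a median of 3.22, and its higher count was 6, 5 and 6 without wild-type replicates 1, 2 and 3 and 2, 7 and 6 without line replicates 1, 2 and 3. Some members, PAP85 and SESA5 among them, reached 1 FPKM only in the line libraries. They passed the filter only through the group where they are high, and left the test when a line library was left out. The count and the median are therefore raised by the filter and describe only the members tested. The member that fell was DOG1 (AT5G45830), a dormancy gene, at 3.53, 2.2 and 2.1 FPKM in wild type and 0.88, 0.93 and 0.94 FPKM in the line (log2 change -0.89 ± 0.20, adjusted p = 0.0101). Of 14 root markers 3 rose and 2 fell, and their summed level of 2106, 2067 and 1784 FPKM in the line overlapped with the 1848, 1731 and 1413 FPKM of wild type. With trimmed-mean scaling 1 higher stood beside 2 lower, and with quantile normalization 2 beside 2. The higher root count was 3, 1 and 1 without wild-type replicates 1, 2 and 3 and 1, 2 and 1 without line replicates 1, 2 and 3, and the lower one 1, 2 and 2 and 2, 2 and 1. Of 5 tested shoot meristem markers 2 rose, 1 of which, KNAT1, lost its call without wild-type replicate 2 or line replicate 1 or 3. CUC1 (AT3G15170), a boundary factor, measured 0.38, 0.3 and 0.94 FPKM in wild type and 4.02, 1.45 and 3.56 FPKM in the line (log2 change 1.34 ± 0.30, adjusted p = 0.0105), and STM, which marks the meristem itself, was not called (-0.06), while WUS and CLV3 were listed at 0 in all line libraries. Trichome markers had 0 calls among 5 in limma's test, with 1 at an unadjusted p of 0.05, and the stomatal markers had 1 among 10, FAMA, a factor of guard cell formation, which was not called under trimmed-mean scaling (adjusted p = 0.0647) or quantile normalization (0.0697), nor without any 1 library except line replicate 2 (0.0887 to 0.149). What any of these tissues contributed to the results above was not tested, apart from the fits without single libraries.

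Called genes stood in the order of RAV1 across the line libraries at a higher rate than all loci. Of 2959 called loci higher in the line, RAV1 itself left out, 51.4% had their 3 line values in the order of RAV1 (replicates 2, 1, 3), against 26.1% of all loci tested. Of the 1581 called lower, 58.1% stood in the reverse order, against 22.3% of all. In wild type the 6 possible orders of the libraries held between 14.3% and 19.0% of all loci each, between 10.5% and 21.5% of the loci called higher and between 10.6% and 22.6% of those called lower. Called loci higher in the line had a median deviation from the wild-type mean of 0.50, 0.61 and 0.69 (log2) in replicates 2, 1 and 3, and called loci lower one of -0.54, -0.73 and -0.90. The order alone carries no test with 3 libraries. It is also the reverse order of their relative depth, the order of the seed marker level and the reverse order of the mesophyll marker level, and these cannot be told apart.

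By process the order was uneven. For the Calvin-Benson cycle the median deviation from the wild-type mean was -0.23, -0.49 and -0.67 in line replicates 2, 1 and 3, and all 13 called members stood in the reverse order of RAV1. Starch genes had 0.17, 0.23 and 0.32, with 9 of 11 members higher in the order of RAV1, and the glyoxylate list 0.29, 0.36 and 0.42, with 8 of 10. Sugar starvation genes had 0.56, 0.64 and 0.89, and 6 of 11 members higher stood in the order of RAV1. That share was near the 51.4% of all loci called higher, whose medians were 0.50, 0.61 and 0.69. Of all loci called lower 58.1% stood in the reverse order. The proteasome stayed near all loci (0.01, 0.09 and 0.09). Other lists did not follow RAV1. Their medians in line replicates 2, 1 and 3 were 0.23, 0.11 and 0.29 for phenylpropanoid genes and -0.07, 0.44 and 0.16 for mitochondrial retrograde signalling. For plastid transcription they were 0.11, 0.02 and 0.03. Among abundant genes that rose in the order of RAV1 was MT2A (AT3G09390), a metallothionein, at 577, 525 and 577 FPKM in wild type and 1626, 1199 and 2252 FPKM in the line (log2 change 1.55 ± 0.19, adjusted p = 0.000783). CCL (AT3G26740), a transcript known for its rapid turnover, measured 628, 606 and 604 FPKM in wild type and 1539, 1403 and 1883 FPKM in the line (log2 change 1.38 ± 0.16, adjusted p = 0.000568). GRP7 (AT2G21660), a glycine-rich RNA-binding protein of the clock, measured 788, 799.7 and 877 FPKM in wild type and 1445, 1201 and 1905 FPKM in the line (log2 change 0.86 ± 0.15, adjusted p = 0.00304). LCR69 (AT2G02100), a small cysteine-rich protein, and ANNAT1 (AT1G35720), an annexin, had changes of 1.1 ± 0.17 and 1.06 ± 0.16.

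**Figure D4:**
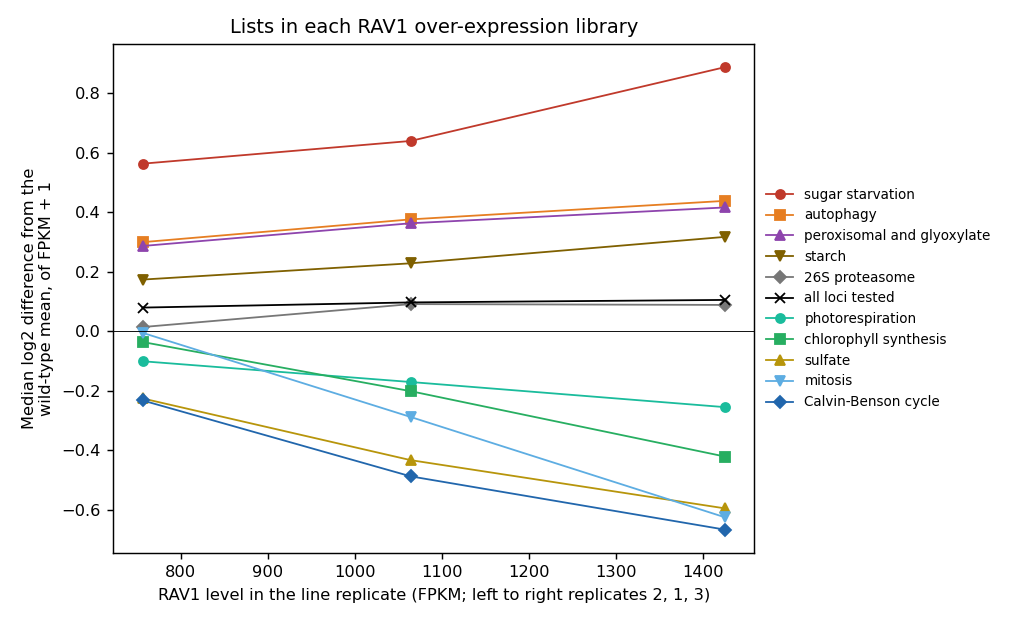
The y axis gives the median log2 difference of each list's tested genes from the wild-type mean (of FPKM + 1), and the x axis the RAV1 level of the 3 line libraries, 756, 1064 and 1426 FPKM. Of the lists shown, which are a selection, those above all loci (black crosses) rise from left to right. Those of the Calvin-Benson cycle, sulfate, chlorophyll, photorespiration and mitosis fall. Lists that did not follow the order of RAV1, such as the phenylpropanoid list, are not drawn, apart from the proteasome. Lines join libraries of 1 group and are not a fitted trend.

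Gene families were taken from the symbols of the RefSeq gene table or, for the larger ones, from its product names, so each holds the members so named and not every gene of the family. Among all loci 15.0% were higher and 8.01% lower, and the share of MYB genes higher was near the former. Among transcription factors, NAC genes had 17 of 66 tested members higher and 3 lower. Quantile normalization gave 13 higher and 4 lower, and trimmed-mean scaling 13 and 3. NAC019 (AT1G52890), a stress-related member, stood at 1.21, 1.03 and 1.68 FPKM in wild type and 14.4, 6.11 and 23.4 FPKM in the line (log2 change 2.60 ± 0.36, adjusted p = 0.00138). NAC3 (AT3G15500) moved the other way, with 47.7, 51.4 and 60.6 FPKM in wild type and 18.4, 24.2 and 13.5 FPKM in the line (log2 change -1.49 ± 0.22, adjusted p = 0.00182). B-box proteins, zinc finger regulators of light responses, had 8 of 27 members lower and 4 higher. Higher and lower calls numbered 4 and 11 after trimmed-mean scaling and 3 and 11 after quantile normalization. BBX14 (AT1G68520) measured 86.4, 83 and 90.5 FPKM in wild type and 25.5, 41.3 and 17.1 FPKM in the line (log2 change -1.68 ± 0.24, adjusted p = 0.00179). The related BBX15 (AT1G25440) measured 31.9, 31.6 and 31.9 FPKM in wild type and 18.7, 19.7 and 12.8 FPKM in the line (log2 change -0.88 ± 0.14, adjusted p = 0.00219). COL9 (AT3G07650), a repressor of flowering, measured 9.53, 7.21 and 8.86 FPKM in wild type and 19.1, 15.7 and 24.3 FPKM in the line (log2 change 1.1 ± 0.17, adjusted p = 0.00196). MYB genes had 11 higher and 9 lower of 71, a balance that turned with the scaling (8 higher and 10 lower under trimmed-mean scaling, 9 and 10 under quantile normalization), as did that of the bZIP genes (8 and 7 of 33; 5 higher and 8 lower under trimmed-mean scaling, 5 and 8 under quantile normalization). MYB4 (AT4G38620), a repressor of phenylpropanoid genes, fell from 29.7, 39.3 and 46.2 to 14.5, 18.5 and 15.7 FPKM (log2 change -1.18 ± 0.15, adjusted p = 0.000927), and GBF2 (AT4G01120), a G-box binding factor, rose from 15.2, 12.9 and 13.3 to 29.7, 27.9 and 35.9 (log2 change 1.12 ± 0.13, adjusted p = 0.000661). The counts of NAC members higher were 12, 10 and 14 without wild-type replicates 1, 2 and 3 and 11, 18 and 10 without line replicates 1, 2 and 3, and those of B-box members lower 5, 4 and 5 and 4, 9 and 4. Left out in the same order, the libraries gave 6, 8 and 9 and then 6, 10 and 8 MYB genes higher and 5, 3 and 5 and then 7, 7 and 4 lower. They gave 5, 4 and 4 and then 5, 7 and 4 bZIP genes higher, 6, 5 and 6 and then 5, 7 and 5 bZIP genes lower, and 2, 3 and 4 and then 2, 5 and 2 B-box genes higher.

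Receptor and resistance genes were called in both directions. Resistance proteins, cysteine-rich kinases and F-box proteins kept more higher than lower calls under both other scalings, where all loci had more lower ones. Among all loci 9.93% were higher and 10.7% lower under trimmed-mean scaling, and 9.85% and 10.9% under quantile normalization. The share of F-box proteins higher was near that of all loci under both. On the deposited values the share of resistance proteins called in either direction was near the 23.0% of all loci. Disease resistance proteins of the nucleotide-binding leucine-rich repeat class had 18 of 92 tested members higher and 3 lower. Trimmed-mean scaling left 15 higher and 3 lower, and quantile normalization 15 and 3. ADR1 (AT1G33560), a helper receptor, stood at 8.17, 8.28 and 8.21 FPKM in wild type and 17.4, 14.7 and 18 FPKM in the line (log2 change 0.94 ± 0.12, adjusted p = 0.00092). RLM3 (AT4G16990), known for its part in fungal resistance, fell from 79.5, 81.1 and 89 to 49.6, 59.1 and 44.8 FPKM (log2 change -0.70 ± 0.11, adjusted p = 0.00222). Leucine-rich repeat receptor kinases had 25 of 137 higher and 12 lower, beside 15.0% and 8.01% of all loci. Under trimmed-mean scaling 18 were higher and 17 lower, and under quantile normalization 17 and 20. As for all loci, lower calls outnumbered higher ones under quantile normalization. IOS1 (AT1G51800), a receptor kinase of that class, measured 15.9, 19.1 and 28.1 FPKM in wild type and 56.7, 44.7 and 67.8 FPKM in the line (log2 change 1.40 ± 0.24, adjusted p = 0.0032). Cysteine-rich receptor kinases had 6 of 27 higher and 3 lower (6 higher and 4 lower under trimmed-mean scaling, 6 and 5 under quantile normalization), with CRK27 (AT4G21230) at 3.5, 3.16 and 3.59 FPKM in wild type and 10.7, 8.5 and 12.9 FPKM in the line (log2 change 1.39 ± 0.17, adjusted p = 0.000813). CRK30 (AT4G11460) measured 12.4, 15.9 and 11.2 FPKM in wild type and 3.9, 5.07 and 2.23 FPKM in the line (log2 change -1.61 ± 0.21, adjusted p = 0.000914). F-box proteins, the substrate receptors of ubiquitin ligases, had 31 of 157 higher and 4 lower. Those higher and lower were 16 and 5 under trimmed-mean scaling and 16 and 5 under quantile normalization. KUF1 (AT1G31350), an F-box gene known for its induction by karrikin, measured 3.52, 3.23 and 4.81 FPKM in wild type and 11.7, 7.69 and 9.38 FPKM in the line (log2 change 1.12 ± 0.17, adjusted p = 0.00179). Without wild-type replicates 1, 2 and 3 the number of resistance proteins higher was 11, 12 and 13, and without line replicates 1, 2 and 3 it was 9, 15 and 8. Left out in the same order, the libraries gave 18, 14 and 19 and then 12, 24 and 15 leucine-rich repeat kinases higher, 6, 5 and 8 and then 6, 18 and 5 lower, and 22, 16 and 21 and then 14, 27 and 13 F-box proteins higher. For the cysteine-rich kinases they gave 6, 5 and 5 and then 3, 6 and 4 higher.

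**Figure D5:**
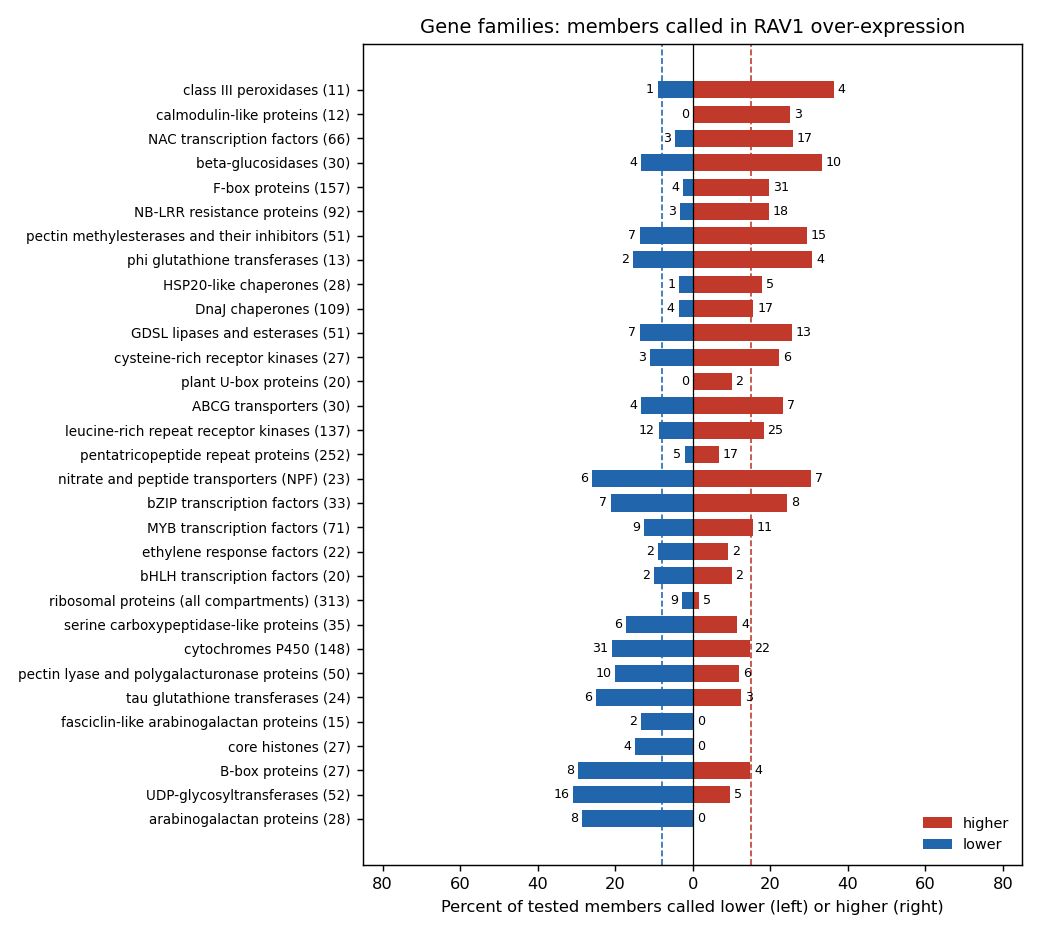
Bars give the percent of tested members of each gene family with at least 10 tested members that were called higher (right, red) or lower (left, blue) in the RAV1 line, with the number called at each bar and the number tested in parentheses. Dashed lines mark 15.0% higher and 8.01% lower, the shares among all loci tested; arabinogalactan proteins have 8 members lower and none higher, and NAC factors 17 higher and 3 lower on the deposited values.

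Families of the cell surface were lower or mixed. Arabinogalactan proteins, heavily glycosylated proteins of the wall and plasma membrane, had 8 of 28 tested members lower and 0 higher. With trimmed-mean scaling 0 higher stood beside 8 lower, and with quantile normalization 0 beside 7. AGP21 (AT1G55330) stood at 157, 156 and 171 FPKM in wild type and 58.8, 82.1 and 37.9 FPKM in the line (log2 change -1.49 ± 0.27, adjusted p = 0.00474). AGP14 (AT5G56540) measured 77.9, 79.1 and 86.8 FPKM in wild type and 33.8, 38.6 and 48.4 FPKM in the line (log2 change -1.01 ± 0.13, adjusted p = 0.000988). Pectin lyases and polygalacturonases had 10 of 50 lower and 6 higher (3 higher and 13 lower under trimmed-mean scaling, 3 and 14 under quantile normalization), with AT4G24780, a pectin lyase, at 68, 60.2 and 61 FPKM in wild type and 22.4, 31.4 and 17.8 FPKM in the line (log2 change -1.40 ± 0.18, adjusted p = 0.000921). Pectin methylesterases and their inhibitors had 15 of 51 higher and 7 lower. Quantile normalization gave 10 higher and 8 lower, and trimmed-mean scaling 10 and 8. ATPMEPCRB (AT4G02330), a pectin methylesterase, measured 22.7, 28.1 and 31.9 FPKM in wild type and 86.6, 59.2 and 97.4 FPKM in the line (log2 change 1.5 ± 0.20, adjusted p = 0.00103), and AT5G62360, annotated as an inhibitor of such enzymes, fell from 28.3, 29.4 and 25.6 to 2.6, 2.85 and 1.38 FPKM (log2 change -3.16 ± 0.23, adjusted p = 9.57e-05). Class III peroxidases had 4 of 11 higher and 1 lower. Higher and lower calls numbered 3 and 1 after trimmed-mean scaling and 3 and 2 after quantile normalization. AT5G64120, a peroxidase, stood at 81.7, 73.6 and 106 FPKM in wild type and 364, 369 and 388 FPKM in the line, and its line libraries were nearly equal (log2 change 2.11 ± 0.14, adjusted p = 4.28e-05). Of 7 tested lipid transfer proteins 1 rose and 3 fell. The member that rose was LTP2 (AT2G38530), from 419.8, 383 and 340 to 1182, 689.6 and 1078 FPKM (log2 change 1.33 ± 0.19, adjusted p = 0.00131). LTP4, LTP6 and LTP fell, and each lost its call in some of the fits without a single library. The arabinogalactan count was 7, 5 and 7 without wild-type replicates 1, 2 and 3 and 6, 7 and 8 without line replicates 1, 2 and 3, the lower pectin lyase count 5, 6 and 6 and 6, 13 and 5, the higher pectin lyase count 3, 4 and 2 and 2, 5 and 2, and the higher methylesterase count 10, 10 and 13 and 8, 12 and 13.

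Enzymes of specialised metabolism and transporters also changed. UDP-glycosyltransferases, which attach sugars to small molecules, had 16 of 52 tested members lower and 5 higher. Trimmed-mean scaling left 2 higher and 16 lower, and quantile normalization 2 and 17. UGT74F2 (AT2G43820), which acts on salicylic acid, stood at 137, 93.7 and 126 FPKM in wild type and 51.2, 54.5 and 58.9 FPKM in the line (log2 change -1.09 ± 0.16, adjusted p = 0.00179). UGT73B1 (AT4G34138) measured 64.6, 48.8 and 55.3 FPKM in wild type and 21.4, 22.6 and 20.4 FPKM in the line (log2 change -1.34 ± 0.19, adjusted p = 0.00145). Cytochromes P450 had 31 of 148 lower and 22 higher, beside 8.01% and 15.0% of all loci, so their share higher was near that of all loci. Under trimmed-mean scaling 18 were higher and 39 lower, and under quantile normalization 17 and 38. CYP96A9 (AT4G39480) measured 1.44, 3.07 and 4.1 FPKM in wild type and 16, 18.6 and 21.7 FPKM in the line (log2 change 2.41 ± 0.25, adjusted p = 0.000321). Beta-glucosidases had 10 of 30 higher and 4 lower (7 higher and 5 lower under trimmed-mean scaling, 8 and 6 under quantile normalization), among them BGLU44 (AT3G18080) at 128, 134 and 115 FPKM in wild type and 233, 257 and 226 FPKM in the line (log2 change 0.92 ± 0.10, adjusted p = 0.000402). Serine carboxypeptidase-like proteins had 4 of 35 higher and 6 lower. Those higher and lower were 4 and 8 under trimmed-mean scaling and 4 and 9 under quantile normalization. SNG1 (AT2G22990), an acyltransferase of this class that makes sinapoylmalate, measured 187, 166 and 152 FPKM in wild type and 57.3, 91.2 and 23.9 FPKM in the line (log2 change -1.72 ± 0.38, adjusted p = 0.0133). The related scpl35 (AT5G08260) measured 38.2, 36.7 and 36.6 FPKM in wild type and 101, 71 and 135 FPKM in the line (log2 change 1.39 ± 0.18, adjusted p = 0.00105). Transporters of the nitrate and peptide family were split, 7 higher and 6 lower of 23. With trimmed-mean scaling 6 higher stood beside 6 lower, and with quantile normalization 5 beside 7. PTR3 (AT5G46050), a peptide transporter, measured 6.6, 6.09 and 8.73 FPKM in wild type and 60.0, 31.4 and 86.7 FPKM in the line (log2 change 2.79 ± 0.32, adjusted p = 0.000783), and AT3G21670 18.2, 13.2 and 9.57 FPKM in wild type and 1.35, 2.66 and 0.52 FPKM in the line (log2 change -2.60 ± 0.30, adjusted p = 0.000703). Without wild-type replicates 1, 2 and 3 the number of glycosyltransferases lower was 9, 11 and 12 and the number higher 3, 2 and 2, and without line replicates 1, 2 and 3 these were 11, 13 and 13 and 2, 6 and 2. Left out in the same order, the libraries gave 8, 5 and 8 and then 6, 11 and 8 beta-glucosidases higher, and 3, 3 and 3 and then 3, 7 and 5 carboxypeptidase-like genes lower. For the nitrate and peptide transporters they gave 4, 5 and 6 and then 4, 8 and 4 higher, and 3, 2 and 3 and then 3, 6 and 3 lower. For the P450s they gave 18, 15 and 19 and then 16, 25 and 15 higher, and 25, 24 and 29 and then 26, 33 and 25 lower.

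Ribosomal and pentatricopeptide repeat proteins held few calls. Ribosomal proteins had 5 of 313 tested members higher and 9 lower, with a median of -0.09 (3 higher and 34 lower under trimmed-mean scaling, 4 and 21 under quantile normalization, with a median of -0.18 under the former). Pentatricopeptide repeat proteins, which process organellar RNA, had 17 of 252 higher and 5 lower, and more lower than higher under both other scalings. Quantile normalization gave 7 higher and 13 lower, and trimmed-mean scaling 8 and 11. DnaJ chaperones had 17 of 109 higher and 4 lower, with a share higher near the 15.0% of all loci. Higher and lower calls numbered 8 and 5 after trimmed-mean scaling and 8 and 6 after quantile normalization. Left out singly, wild-type replicates 1, 2 and 3 and then line replicates 1, 2 and 3 gave 2, 2 and 5 and 2, 12 and 2 ribosomal proteins lower, 4, 2 and 4 and 3, 6 and 2 higher, and 8, 7 and 7 and 5, 14 and 8 pentatricopeptide repeat proteins higher, with 3, 2 and 4 and 3, 5 and 2 lower. Without wild-type replicates 1, 2 and 3 the higher DnaJ count was 3, 5 and 13, and without line replicates 1, 2 and 3 it was 7, 18 and 6.

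By log2 change the 9 largest rises were those of AT1G68250, CRC, AT3G59930, AT1G03106, AT5G33355, LCR67, PAP85, LBD40 and SESA5, among them the seed storage genes CRC and SESA5. Each was highest in line replicate 3. AT1G68250, AT1G03106, PAP85 and SESA5 reached 1 FPKM only in line libraries. They passed the filter only through the group where they are high, and left the test without any 1 line library. Their place in this ranking is therefore no support for a rise. The next largest rise was that of DELTA-VPE (AT3G20210), a vacuolar processing enzyme known from the seed coat. It stood at 3.79, 3.65 and 2.99 FPKM in wild type and 75.7, 58 and 81.5 FPKM in the line. Both groups were tight and lay far apart, by 20.6-fold between the means (log2 change 4.01 ± 0.18, adjusted p = 5.63e-06). SRO4 (AT3G47720) measured 1.95, 1.29 and 4.41 FPKM in wild type and 52.9, 42.8 and 58.3 FPKM in the line (log2 change 3.97 ± 0.52, adjusted p = 0.00154), and AT1G19530 11.6, 15.1 and 29.2 FPKM in wild type and 269.6, 239 and 303 FPKM in the line (log2 change 3.88 ± 0.41, adjusted p = 0.00069). AT2G17850, a rhodanese-like protein, measured 3.4, 3.97 and 6.28 FPKM in wild type and 71.7, 65.9 and 87.4 FPKM in the line (log2 change 3.80 ± 0.27, adjusted p = 0.000102), and AT3G44770, annotated as a putative transmembrane protein, 1.89, 2.38 and 2.6 FPKM in wild type and 42.3, 23.6 and 56.1 FPKM in the line (log2 change 3.58 ± 0.25, adjusted p = 8.29e-05). None of these overlapped with wild type in any library, and none had its highest line value in replicate 2. AT5G10040, an uncharacterized protein that ranked directly after SRO4, did have it there. It measured 0.85, 1.02 and 5 FPKM in wild type and 41.6, 44.5 and 42.9 FPKM in the line (log2 change 3.96 ± 0.52, adjusted p = 0.00152).

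Among the deepest falls was that of AT1G73600, annotated as an S-adenosylmethionine-dependent methyltransferase, at 345, 414 and 346 FPKM in wild type and 33.6, 84.5 and 7.15 FPKM in the line. Line replicate 3 held the least and replicate 2 the most of the line, and all were under every wild-type library (log2 change -3.67 ± 0.73, adjusted p = 0.0115). CIB1 (AT4G34530), a bHLH factor that interacts with cryptochrome, stood at 14.6, 18 and 17.8 FPKM in wild type and was listed at 0 in line replicates 1 and 3 and at 3.21 FPKM in replicate 2 (adjusted p = 0.00191). AT3G62040, a hydrolase of the haloacid dehalogenase type, measured 125, 123 and 149.7 FPKM in wild type and 15.3, 23.1 and 8.52 FPKM in the line (log2 change -3.10 ± 0.28, adjusted p = 0.00028), and AT3G18773, a RING finger protein, 36.3, 38.8 and 38.3 FPKM in wild type and 5.11, 7.08 and 4.22 FPKM in the line (log2 change -2.61 ± 0.18, adjusted p = 5.25e-05). NAS1 (AT5G04950), a nicotianamine synthase of metal transport, measured 133, 115 and 109.8 FPKM in wild type and 19.7, 27 and 16.9 FPKM in the line (log2 change -2.46 ± 0.19, adjusted p = 0.000116). OPR1 (AT1G76680), an oxophytodienoate reductase, measured 209, 134 and 179 FPKM in wild type and 27.9, 46 and 22.9 FPKM in the line (log2 change -2.43 ± 0.37, adjusted p = 0.0027). CYP81D11 (AT3G28740), a P450 of detoxification responses, measured 47.6, 12.9 and 16.1 FPKM in wild type and 1.14, 0.73 and 1.95 FPKM in the line (log2 change -3.35 ± 0.52, adjusted p = 0.00286). In NAS1, OPR1 and AT3G62040 the line values stood in the reverse order of RAV1, whereas in CYP81D11 replicate 3 was the highest of the line.

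Set against bes1-D in the same fit, 7604 loci passed (38.5%), with 5520 higher and 2084 lower in the RAV1 line. That comparison shares its line libraries with the one above, so their lists are not independent. The sugar starvation list had 11 members higher and 2 lower there and the Calvin-Benson cycle 15 lower. The proteasome, with no call against wild type, had 19 of 21 subunits higher than in bes1-D. Its summed level averaged 2383 FPKM in wild type, 2502 in the line and 1960 in bes1-D, so on the deposited values bes1-D was the group that stood apart.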

How the data were processed

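RNA of whole seedlings was sequenced in 9 libraries, 3 each of En2 wild type, the RAV1 over-expression line and bes1-D, grouped by their titles. The authors deposited a table of FPKM values per locus; per the submitters' processing notes it was made with FastQC 0.10.1, TopHat2, Cufflinks 2.1.1 and the TAIR10 build. No counts were used, so the depth is unknown, precision comes from the spread of 3 libraries a group, and relative depth was estimated from the smallest FPKM steps of low loci. 1 locus had a blank value.

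From these values log2(FPKM + 1) was computed for loci at 1 FPKM or more in 3 libraries, and all 9 libraries were fitted together with limma 3.58.1 (trend and robust, 6 residual degrees of freedom before moderation) in R 4.3.3. Calls are two-sided at a Benjamini-Hochberg adjusted p of 0.05 over all loci tested. The fitting script was tested on simulated data. Trimmed-mean factors were computed on the FPKM values with the usual trimming; tables and plots used Python 3.11.15, numpy 2.4.6, pandas 2.3.3, scipy 1.17.1 and matplotlib 3.10.9. Names, families and promoter windows came from RefSeq, where 25135 of 25199 loci matched.

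The 29 gene lists (475 genes, 474 in the table, 450 tested), the 24 families by symbol and the 11 by product name were chosen with earlier results of these data known, and the product families and the windows shown were chosen after the files were read. Besides RAV1 and BES1, genes named were, per list and family, up to 4 called genes with the smallest p and the most abundant gene in wild type. Added to them were the 20 largest called changes each way with a higher mean of at least 5 FPKM and no overlap, and the 10 most abundant called genes each way that followed the RAV1 order. Of these 314 genes 280 were called and 187 stayed called under all 15 alternatives. The window of 1 further gene is not reported here.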

Additional observations from a re-analysis of the deposited data

How the results depend on the processing

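Of 15 alternatives to the reported settings, trimmed-mean scaling and quantile normalization moved the split by direction, to 1960 and 1944 loci higher. Leaving out 1 library at a time gave 2644 to 4692 loci called, 1632 to 2880 higher and 985 to 1812 lower, and the lowest counts came without line replicate 1 or wild-type replicate 2. Under quantile normalization 4 named genes that fell changed sign, RBCS1B to 0.00106, RBCS3B to 0.12, PSBR to 0.16 and RCA to 0.11 (log2). These are among the most abundant transcripts of the seedlings; the cause was not tested. Over all list counts and settings 1557 stayed within 1.5 times the reported count and 363 did not. Over all named genes and settings 4291 values stayed on their side of the threshold with the same direction, 323 lost a call and 10 gained one.

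Samples of the same number share only that number. The deviations of same-numbered wild-type and line libraries from their group means correlated at -0.0178, 0.117 and 0.0389 across loci, and not every library correlated best with its own number. With the replicate number as a block 4354 loci were called, 2804 higher and 1550 lower. The unknown depth limits what can be said of loci near 1 FPKM, where a fold change on log2(FPKM + 1) is understated.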
